A study of Mus musculus with 1931 samples.

Results

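FGF4 and its receptors were followed through the cell types of RtL-embryoids, structures that ESCs build in 3D co-culture, together with transcripts that the ERK kinases switch on. The 10 genes are the ligand *Fgf4*, the receptors *Fgfr1*, *Fgfr2*, *Fgfr3* and *Fgfr4*, and the ERK targets *Spry2*, *Spry4*, *Dusp6*, *Etv4* and *Etv5*. They were taken by name from the 20999 genes of the deposited table, and all 10 were present. In the early mouse embryo, pluripotent cells secrete FGF4, which acts on neighbouring trophoblast and endoderm through receptor tyrosine kinases. An occupied FGF receptor signals through RAS, RAF and MEK to ERK. ERK then induces transcription factors of the ETS family such as *Etv4* and *Etv5*, and inhibitors of its own pathway. Among these inhibitors, the Sprouty proteins act upstream of ERK and the phosphatase DUSP6 removes phosphate from ERK itself.

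RtL-embryoids were assembled from 3 ESC lines. Kermit ESCs carry an Oct3/4-GFP reporter, 5-Factor ESCs carry *Eomes*, *Cdx2*, *Gata3*, *Ets2* and *Tfap2c* as transgenes under doxycycline (DOX), and mCherry-marked iGATA6 ESCs carry a lentiviral, DOX-inducible *Gata6*. The co-cultures began in medium with 2i and LIF, moved to a serum medium with DOX and without 2i, LIF or added FGF4, and were harvested after DOX had been withdrawn. Structures were picked by hand, pooled, dissociated and sorted by fluorescence, with an antibody stain for CD40, into plates 3, 4 and 5. In 2D, Kermit ESCs were kept in serum, LIF and 2i, a pair of inhibitors against GSK3 and MEK, without DOX. The 2D iTSC were 5-Factor ESCs after DOX in feeder-conditioned medium with FGF4 and heparin, and the 2D iXEN cells were iGATA6 ESCs after DOX in serum medium. MEK, the kinase just upstream of ERK, was therefore blocked in the ESCs and FGF4 was supplied to the iTSC, while neither applied to the 3D cells at harvest. Each condition was 1 sample. Culture, plate and library therefore cannot be told apart from cell type between 3D and 2D or between the 2D cultures. Within 3D, cell types were sorted by different labels, lie in different well columns and are taken to come from different ESC lines. Label, well position, ESC line and transgene therefore cannot be told apart from cell type there either. No p-value was computed from cells.

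Single-cell transcripts were read as TPM, which correct for transcript length, and were rescaled to sum to 10000 per cell (TP10k). Of 1931 wells, 1406 with at least 2500 genes above 0 were kept, 982 from 3D and 424 from 2D. GEO's labels give plate and well but no lineage for 3D cells, and they were grouped by well columns. All 7 Epi markers had their highest 3D mean in wells 1 to 8, all 7 VE markers in wells 9 to 16 and all 7 ExE markers in wells 17 to 24, and these blocks are called Epi-like, VE-like and ExE-like wells. They held 32%, 32.1% and 35.9% of the 982 cells of 3D, and ESCs, iXEN cells and iTSC 33.5%, 33.3% and 33.3% of the 424 cells of 2D. Of the deposited wells, 82.2%, 82.2% and 91.9% were kept in the 3D blocks. The kept share was 44.8% for ESCs, 77.5% for iXEN cells and 49.8% for iTSC, so that most ESC and iTSC wells were left out. Own markers led in 99.7% of cells of the Epi-like wells and 96.8% of the VE-like wells. In the ExE-like wells they led in only 59.8% of cells, with Epi markers leading in 61 cells, VE markers in 22 and a tie in 59, and calls for these wells were repeated on the cells that led in ExE markers. In 2D, VE markers led in 99.3% of iXEN cells, Epi markers in every ESC and ExE markers in 86 iTSC, or 61%. The ExE markers *Cdx2*, *Eomes*, *Tfap2c* and *Gata3* are also DOX transgenes, and own and introduced transcripts were not told apart. The naming of the ExE-like wells and a lead in ExE markers may therefore rest in part on the transgenes. *Elf5*, *Plet1* and *Krt7* are not transgenes and also had their highest 3D mean in wells 17 to 24. The sum of 8 fibroblast markers stayed between 0.0275 and 0.0724 TP10k in every group. Median numbers of genes above 0 were 4823 to 5396 in the 3D blocks and 8537 to 9093.5 in 2D, so that shares of cells with a transcript are not comparable between 3D and 2D without matching.

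A gene was called higher or lower between a pair of groups when its mean changed at least 2-fold on the log2(TP10k + 0.1) scale. At least 10% of cells also had to have it in 1 of the groups. Where a 3D block took part, the direction had to be the same on plates 3, 4 and 5. Calls between 2D cultures had no such check. The whole is a rule of size and not a test. The pseudocount of 0.1 understates the fold change of weakly expressed genes, and ratios of the means without it are given as well. Shares of cells carry exact Clopper-Pearson 95% intervals. These cover the counting error of cells only, since the cells of a group come from 1 pool or culture and are not replicates. SMART-seq2 reads carry no molecular identifiers.

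*Fgf4* was a transcript of pluripotent cells. It was found in 86.6% of cells of the Epi-like wells (95% CI 82.4% to 90.2%), at a mean of 1.12 TP10k and at 1.10, 1.12 and 1.13 TP10k on plates 3, 4 and 5. In the VE-like wells it was found in 1 cell (0.317%), and in the ExE-like wells in 0 cells, for which the 95% interval reaches 1.04%. These are shares of cells with a transcript found and not of cells that express the gene. The ESCs all had *Fgf4*, at a mean of 1.37 TP10k. Of the iXEN cells 1 had it (0.709%). In iTSC it was above 0 in 16 cells, or 11.3% (95% CI 6.63% to 17.8%), at a mean of 0.0257 TP10k. The Epi-like wells and the ESCs were thus high and the other groups at or near 0.

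Some cells sat in another block but led in Epi markers, and those in the ExE-like wells differed from the Epi-like wells in *Fgf4*. The single *Fgf4* cell of the VE-like wells was 1 of 4 cells there that led in Epi markers. Of the 61 such cells in the ExE-like wells none had *Fgf4*. *Zfp42* was found in 93.4%, *Sox2* in 90.2% and *Pou5f1* in 37.7% of them. Over all cells of the ExE-like wells these shares were 89.5%, 50.7% and 14.4%, so that *Zfp42* hardly set the 61 cells apart. *Tdgf1*, the NODAL coreceptor, was found in 4.92% of these 61 cells, against 95.5% in the Epi-like wells. In iTSC, *Zfp42* was found in 100%, *Utf1* in 98.6% and *Sox2* in 97.2% of cells, but *Tdgf1* in 16.3%. A lead in Epi markers thus does not by itself mark a pluripotent cell in the ExE-like wells or among iTSC. Of the iTSC with *Fgf4*, 6 were among the 28 that led in Epi markers, 5 among the 86 that led in ExE markers and 5 among the 27 with a tie.

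*Fgf4* spans chr7:144861386-144865245 on the plus strand (RefSeq, GRCm38.p6). SOX2 and OCT4 are known to regulate it through an enhancer in its last exon, in which an HMG box and an octamer stand next to each other. Exon 3 of 3 holds such a pair at chr7:144864389-144864416, in the 3′ UTR and 1448 bases after the stop codon. It is shown because both factors were themselves measured in these cells, with the HMG box CTTTGTT and the octamer ATGCNAAT in capitals.
*Fgf4* exon 3: aaactCTTTGTTtggATGCTAATgggat
The same pair of motifs within 5 bases of each other was found in 7 of 21877 protein-coding genes (0.032%, Gencode vM21). A match describes letters and not binding. *Sox2* averaged 1.05 TP10k in the Epi-like wells, 0.0229 in the VE-like wells and 0.312 in the ExE-like wells, while *Pou5f1* averaged 14.2, 4.53 and 0.331. The VE-like wells thus had *Pou5f1* with little *Sox2*, and the ExE-like wells had both below the Epi-like wells. The iTSC had *Sox2* at 0.812 and *Pou5f1* at 1.93 TP10k.

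The genes most like *Fgf4* over the 1406 cells, by Pearson's correlation of ln(TP10k + 1) among 11506 genes, were *Tdgf1* (r = 0.79), *Nanog* (r = 0.75) and *Igfbp2* (r = 0.74). These correlations run across cells of 6 groups, which share libraries and depth, and describe mainly the differences between groups. The neighbours of *Fgf4* on chromosome 7 followed other patterns. *Fgf3* starts 22.8 kb before it and averaged 0.625 TP10k in the VE-like wells, where it was found in 58.7% of cells. *Fgf15* starts 35.1 kb after it and averaged 0.608 TP10k in the Epi-like wells, where it was found in 31.8%. *Ccnd1*, the gene of cyclin D1, starts 78.4 kb after *Fgf4* and averaged 0.671 TP10k in the Epi-like wells and 1.27 in the ESCs. Of these 3 FGF genes, *Fgf4* was thus the one shared by Epi-like wells and ESCs, since *Fgf15* averaged only 0.0180 TP10k in the ESCs.

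**Figure D1:**
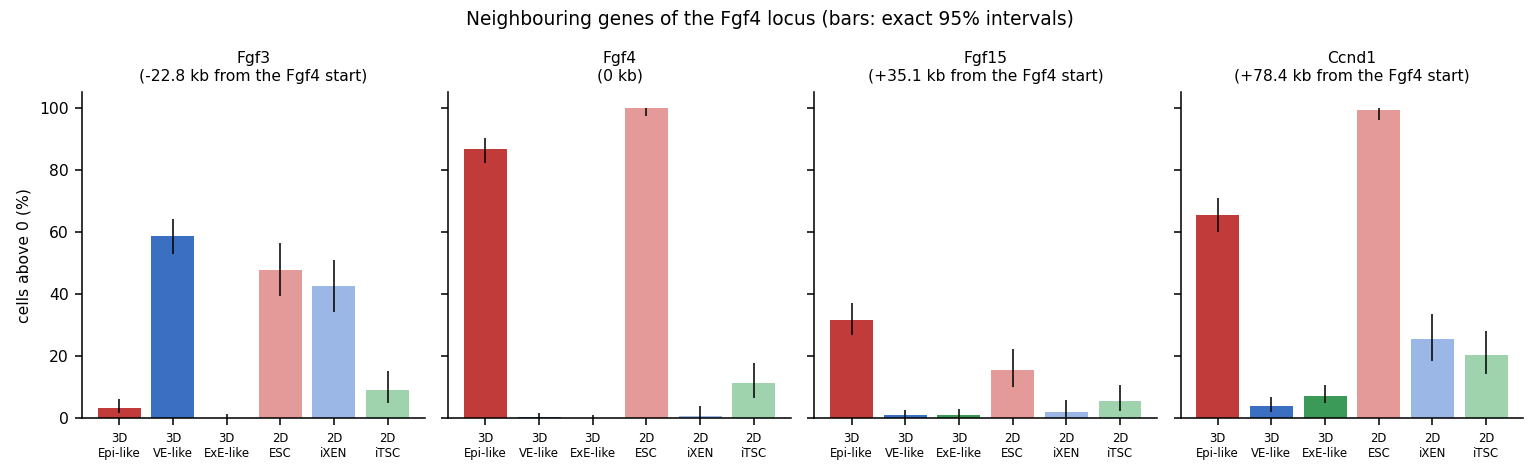
Share of cells (%) with a transcript of *Fgf4* and of genes beside it on chromosome 7 in the 6 groups, with exact 95% intervals as lines. *Fgf4* and *Ccnd1* were found most often in ESCs and Epi-like wells, *Fgf15* in Epi-like wells at 31.8% and *Fgf3* in VE-like wells at 58.7%.

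The 4 receptors divided the cell types between them. The receptors are transmembrane tyrosine kinases that differ in their affinity for FGFs, and FGFR2 is the one best known from trophoblast. *Fgfr1* averaged 0.557 TP10k in the Epi-like wells (0.448 to 0.617 on single plates), 0.0387 in the VE-like wells (0.0221 to 0.0667) and 0.945 in the ExE-like wells (0.915 to 0.997). In 2D it averaged 0.365 in ESCs, 0.0566 in iXEN cells and 1.03 in iTSC. The VE-like wells and the iXEN cells were the low groups, and the plate ranges of the 3D blocks did not overlap. *Fgfr1* was 14.4-fold higher by ratio of means in Epi-like than in VE-like wells and 24.4-fold higher in ExE-like than in VE-like wells. It lies at chr8:25518759-25575718.

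*Fgfr2* averaged 0.0853 TP10k in the Epi-like wells (0.0813 to 0.0914 on single plates), 0.430 in the VE-like wells (0.266 to 0.566) and 0.770 in the ExE-like wells (0.589 to 0.957). It was found in 7.96% (95% CI 5.22% to 11.5%), 40.3% and 47.6% of their cells. In 2D it averaged 0.010 in ESCs, 0.454 in iXEN cells and 1.05 in iTSC. The pluripotent groups were low in both cultures. The ExE-like wells exceeded the VE-like wells on each plate, although their log2 difference ran from 0.05 on plate 3 to 1.53 on plate 4 and the call was not made. *Fgfr2* lies at chr7:130162451-130266808. Values are sums per gene, so that its IIIb and IIIc splice forms, which bind different FGFs, were not told apart.

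*Fgfr3* was a receptor of the endoderm groups, with 0.182 TP10k in the VE-like wells (0.155 to 0.214 on single plates) and 0.489 in the iXEN cells. The other groups averaged 0.00195 to 0.0122 TP10k. It was found in 35.9% of cells of the VE-like wells (95% CI 30.6% to 41.4%), against 0.955% in the Epi-like and 2.55% in the ExE-like wells. In the latter, 5 of its 9 positive cells were among the 22 that led in VE markers, and 3 among those that led in ExE markers.

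*Fgfr4* was weak wherever it was found, and averaged 0.144 TP10k in the ExE-like wells, 0.138 in the VE-like wells, 0.104 in iXEN cells and 0.143 in iTSC. In the Epi-like wells it averaged 0.0202 and in the ESCs 0.0123. Its level in the VE-like wells (0.125 to 0.146 on single plates) overlapped that in the ExE-like wells (0.129 to 0.160), and these groups could not be ordered.

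**Figure D2:**
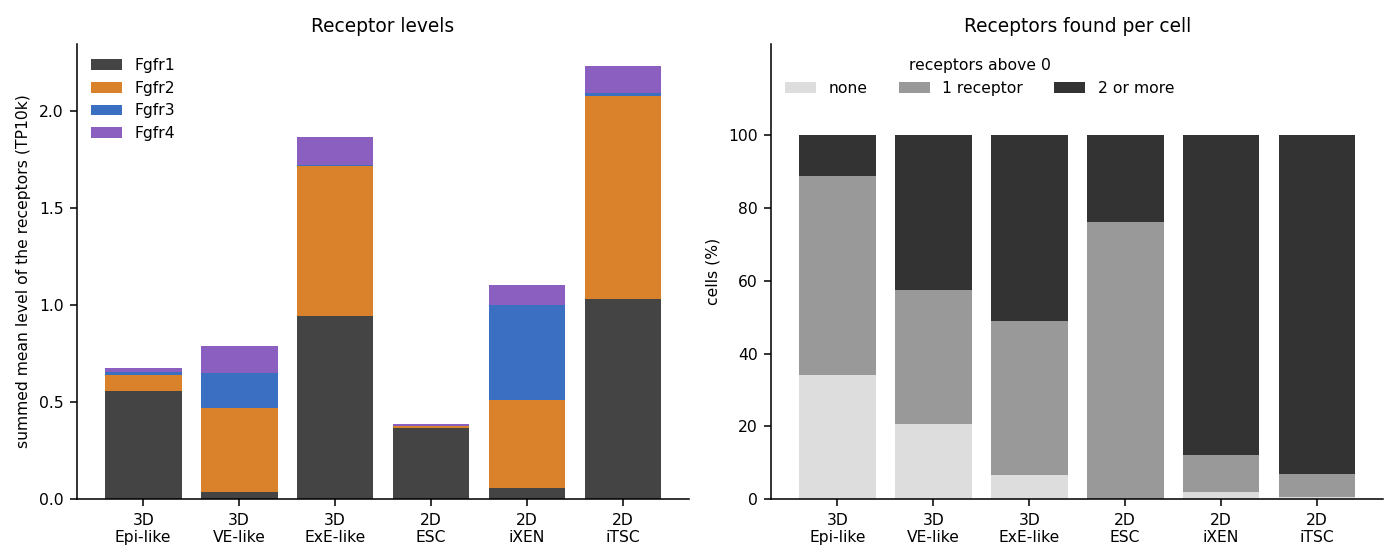
Mean TP10k of the 4 FGF receptors, stacked, in each group (left) and the share of cells with none, 1 or at least 2 of them found (right). *Fgfr1* makes up most of the receptor transcript in Epi-like wells and ESCs, *Fgfr1* and *Fgfr2* together in ExE-like wells and iTSC, and *Fgfr2* and *Fgfr3* in VE-like wells and iXEN cells.

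Summed over the 4 receptors, transcript was highest in the trophoblast groups, at 1.87 TP10k in the ExE-like wells and 2.23 in iTSC. The sum was 0.675 in the Epi-like wells, 0.789 in the VE-like wells, 0.390 in ESCs and 1.10 in iXEN cells. *Fgfr1* gave 82.6% of it in the Epi-like wells and 93.8% in ESCs. In the VE-like wells *Fgfr2* gave 54.5%, *Fgfr3* 23.1% and *Fgfr1* 4.91%, while in iXEN cells *Fgfr2* gave 41.1% and *Fgfr3* 44.3%. In the ExE-like wells *Fgfr1* gave 50.6% and *Fgfr2* 41.2%, and in iTSC 46.1% and 47%. In each lineage, the receptor that gave the most in 3D gave at least 41.1% in 2D as well.

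Receptors were also counted together within single cells. Cells with both *Fgfr1* and *Fgfr2* made up 40.2% of the ExE-like wells, 6.69% of the Epi-like wells and 6.98% of the VE-like wells, at similar depth. Across cells the Spearman correlation of *Fgfr1* with *Fgfr2* was 0.04, 0.15 and -0.0005 in these wells. Such joint shares thus follow mainly from the share of each gene and are no separate result. In the VE-like wells 33.3% of cells had *Fgfr2* without *Fgfr1*, and in the Epi-like wells 56.1% had *Fgfr1* without *Fgfr2*. No receptor transcript was found in 34.1% of cells of the Epi-like wells, 20.6% of the VE-like wells and 6.80% of the ExE-like wells. At 5000 to 9000 genes above 0, these shares were 22.5%, 15.7% and 4.55%. Cells that express a receptor weakly are missed at this depth, and a cell with none found is not shown to lack it.

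The genes most like *Fgfr3* over the 1406 cells were *Gas6* (r = 0.52), *Amn* (r = 0.50) and *Spink1* (r = 0.50), of which *Amn* encodes an endocytic receptor protein of the visceral endoderm. For *Fgfr2* they were *Cldn3* (r = 0.47), *Fbxo21* (r = 0.45) and *Ddah1* (r = 0.45), and for *Fgfr1* *Lgals1* (r = 0.39), *Cldn4* (r = 0.38) and *Ak1* (r = 0.37). *Cldn3* and *Cldn4* encode claudins, proteins of tight junctions. *Fgfr4* had no gene above r = 0.19, the value for *2200002D01Rik* and *Rab11a*.

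The 5 ERK targets did not share 1 pattern across the cell types. *Dusp6* averaged 0.933 TP10k in the Epi-like wells (0.846 to 1.04 on single plates), 0.0709 in the VE-like wells (0.0173 to 0.119) and 0.823 in the ExE-like wells (0.664 to 0.921). It was found in 69.7%, 7.30% and 51.3% of their cells. In 2D it averaged 0.141 in ESCs, 0.0856 in iXEN cells and 1.12 in iTSC. The endoderm groups and the MEK-inhibited ESCs were low, and the remaining groups were high.

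*Etv5* averaged 1.163 TP10k in the Epi-like wells (1.03 to 1.23 on single plates), 0.174 in the VE-like wells (0.127 to 0.223) and 0.393 in the ExE-like wells (0.347 to 0.468). In 2D the ESCs had the highest mean of all groups at 2.07 TP10k, beside 0.436 in iXEN cells and 0.765 in iTSC. *Etv5* was thus high in pluripotent cells of both cultures, and every ESC had it. *Etv4*, its close relative, had another order, with 0.640 in the Epi-like wells, 0.313 in the VE-like wells and 0.380 in the ExE-like wells, beside 0.246 in ESCs, 0.268 in iXEN cells and 1.161 in iTSC. The plate ranges of *Etv4* in VE-like wells (0.271 to 0.363) and ExE-like wells (0.348 to 0.396) overlapped.

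*Spry4* averaged 0.193 TP10k in the Epi-like wells, 0.0837 in the VE-like wells and 0.297 in the ExE-like wells, and their plate ranges did not overlap. In 2D it averaged 0.147 in iXEN cells and 0.180 in iTSC, but 0.00519 in ESCs, where 9.86% of cells had it. *Spry2* was the most abundant target in 3D, with 3.28 TP10k in the Epi-like wells, 1.63 in the VE-like wells and 2.08 in the ExE-like wells. In 2D it was lower in every culture, with 0.605 in ESCs, 0.414 in iXEN cells and 0.351 in iTSC. Among the ESCs its median was 0.363 and its highest cell 22.1 TP10k.

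**Figure D3:**
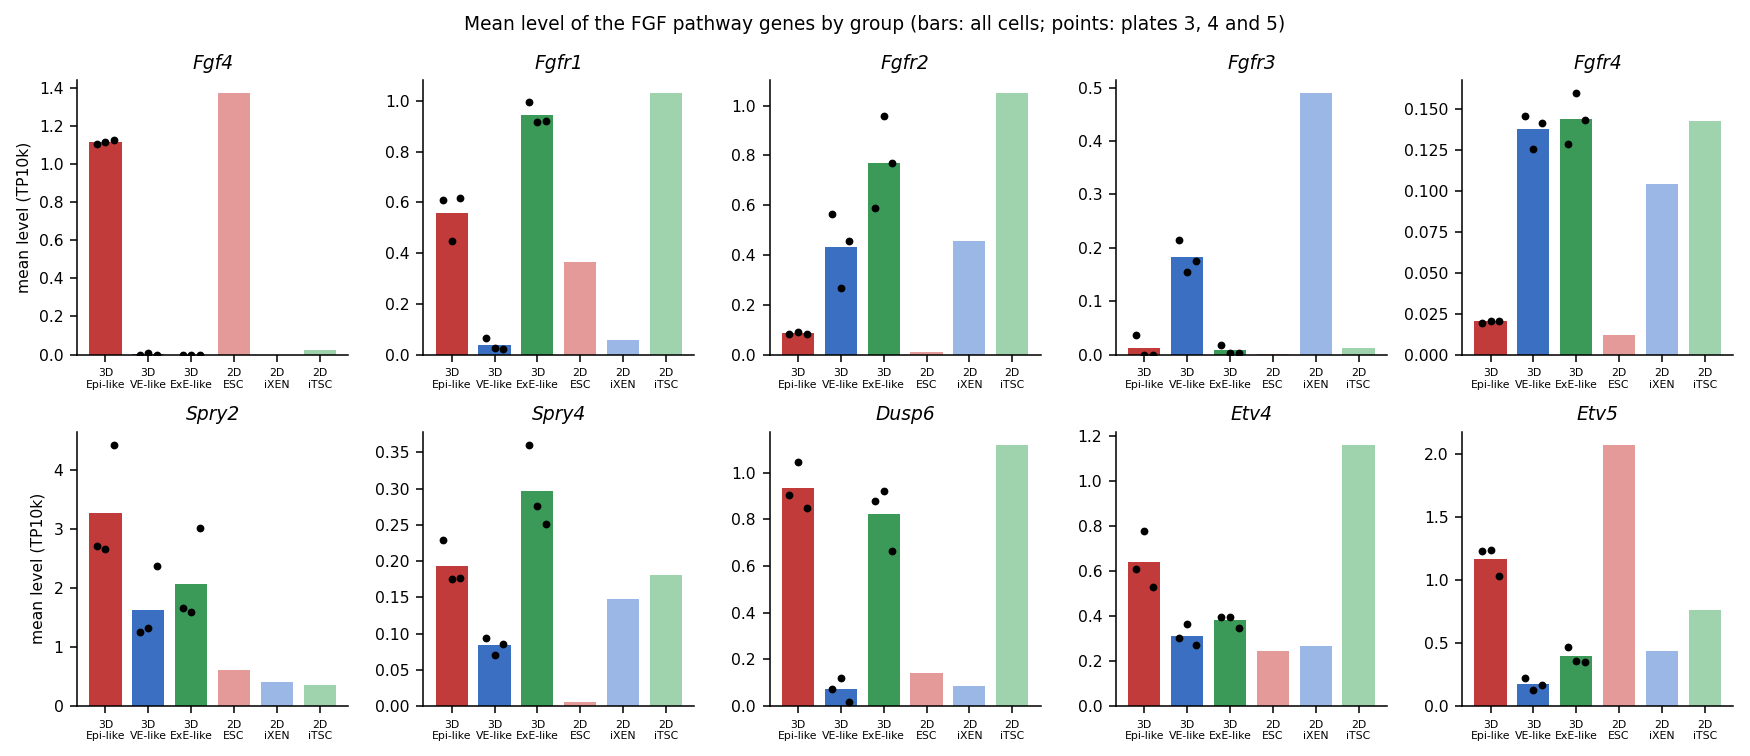
Mean TP10k of the 10 genes in the 6 groups (bars), with plates 3, 4 and 5 as points for the 3D blocks and a separate scale for each gene. *Fgf4* is near 0 outside the Epi-like wells and ESCs, *Spry4* and *Dusp6* are low in ESCs, and *Spry2* is higher in each 3D block than in any 2D culture.

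The 250 bases before the transcription start are shown for 3 targets with different patterns, in reading direction of the gene, from RefSeq on GRCm38.p6. *Dusp6* (chr10:99262981-99263230, plus strand) was low in MEK-inhibited ESCs, *Etv5* (chr16:22439571-22439820, minus strand) was high there, and *Spry2* (chr14:105896820-105897069, minus strand) was high in every 3D block. Capitals mark the ETS core CGGAA and the GC box GGGCGG on either strand, motifs that were chosen with the values known.
*Dusp6*: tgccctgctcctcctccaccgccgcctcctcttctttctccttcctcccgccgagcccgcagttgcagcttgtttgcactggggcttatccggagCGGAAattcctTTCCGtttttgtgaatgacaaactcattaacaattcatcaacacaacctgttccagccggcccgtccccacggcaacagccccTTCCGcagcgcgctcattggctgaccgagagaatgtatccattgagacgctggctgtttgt
*Etv5*: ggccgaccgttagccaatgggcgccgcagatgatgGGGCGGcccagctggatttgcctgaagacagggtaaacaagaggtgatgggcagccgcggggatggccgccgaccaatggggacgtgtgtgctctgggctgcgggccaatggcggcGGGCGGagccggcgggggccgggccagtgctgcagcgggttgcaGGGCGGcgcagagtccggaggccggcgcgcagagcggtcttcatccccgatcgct
*Spry2*: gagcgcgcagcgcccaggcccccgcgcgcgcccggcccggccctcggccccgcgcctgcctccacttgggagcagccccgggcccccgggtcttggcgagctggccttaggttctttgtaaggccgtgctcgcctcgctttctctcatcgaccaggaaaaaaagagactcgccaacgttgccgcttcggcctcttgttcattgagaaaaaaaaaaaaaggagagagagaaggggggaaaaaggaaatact
The window of *Dusp6* held 3 CGGAA and no GGGCGG, that of *Etv5* 3 GGGCGG and no CGGAA, and that of *Spry2* neither. RefSeq lists another start of *Etv5* (window chr16:22438369-22438618, minus strand), and its window held neither motif. Of 32851 promoter windows of this length, 25.2% held CGGAA and 32.7% GGGCGG. The longer ETS motif CCGGAAG, held by 6.91% of all windows, was in none of the 7 members with a window. *Fgf4* held 2 GGGCGG. These are matches of letters, and nothing about binding was measured.

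Within a group, correlations between the targets were weak. Over the 10 pairs of the 5 targets in 6 groups, 55 of 60 Spearman correlations across cells were above 0, and 51 by Pearson's correlation. The median was 0.120 in Epi-like wells, 0.134 in VE-like wells, 0.145 in ExE-like wells, 0.066 in ESCs, 0.175 in iXEN cells and 0.224 in iTSC. The highest was 0.41 between *Spry2* and *Dusp6* in iTSC. *Etv4* and *Etv5* reached 0.36 in the ExE-like wells, with 0.28, 0.38 and 0.39 on plates 3, 4 and 5. There each correlated at 0.29 with the number of genes per cell, and own markers led in only 59.8% of cells. Their 95th percentiles against all genes of these wells were 0.220 and 0.197. Against all genes of a group, a single target had a median correlation of -0.02 to 0.05 and a 95th percentile of 0.093 to 0.220. With the number of genes per cell, the targets correlated at -0.16 to 0.29 over the 6 groups. The part of depth in these correlations was not tested.

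Over all cells, *Etv5* was most like *Nanog* (r = 0.61), *Gsta4* (r = 0.61) and *Igfbp2* (r = 0.58). *Dusp6* was most like *Bmp4*, *Pdk1* and *Ifitm2* (r = 0.34 each), and *Etv4* was most like *Utf1* (r = 0.38), *Bmp4* (r = 0.36) and *Bmp8b* (r = 0.32). *Bmp4* and *Bmp8b* encode BMP ligands of the extraembryonic ectoderm. *Spry4* had no gene above r = 0.26, the value for *Elmo1*.

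Between the Epi-like and the VE-like wells, 6 of the 10 genes were called, where 16% of the 10662 genes tested were called, 7.54% higher and 8.48% lower in the Epi-like wells. *Fgf4* (log2 difference 3.55), *Dusp6* (2.59), *Fgfr1* (2.24) and *Etv5* (2.20) were higher in the Epi-like wells, and *Fgfr2* (-1.52) and *Fgfr3* (-1.33) were lower. *Dusp6* was 13.1-fold and *Etv5* 6.67-fold higher by ratio of means. The others lay within 2-fold on the same scale, with *Spry2* at 0.97 and *Fgfr4* at -0.98 next to the limit. The median over all genes tested was 0.04.

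Between the Epi-like and the ExE-like wells, 4 genes were called, where 10.3% of 10886 genes were, 3.78% higher and 6.53% lower. *Fgf4* (3.60) and *Etv5* (1.36) were higher in the Epi-like wells, and *Fgfr2* (-2.23) and *Fgfr4* (-1.02) were lower. *Fgfr2* was 9.02-fold higher in the ExE-like wells by ratio of means. For *Fgfr4* the difference was -0.98 without plate 4, within the limit. *Dusp6* differed by only 0.16 between these blocks.

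Between the ExE-like and the VE-like wells, 4 genes were called, where 10.1% of 10836 genes were, 5.97% higher and 4.13% lower. *Fgfr1* (2.91), *Dusp6* (2.43) and *Spry4* (1.11) were higher in the ExE-like wells and *Fgfr3* (-1.38) was lower. *Fgf4* could not be compared, since it was at or near 0 in both. The calls in the ExE-like wells were all kept when only cells with leading ExE markers were used. In these, *Fgfr2* averaged 0.890 TP10k, *Fgfr1* 0.870 and *Etv5* 0.327.

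The Epi-like wells were compared with the ESCs, which stood under MEK inhibition. Here 4 of the 5 targets were higher in the Epi-like wells, where 4.41% of 13109 genes were called, 2.49% higher and 1.92% lower, and neither the ligand nor a receptor was called. *Spry2* differed by 2.26, *Dusp6* by 2.10, *Spry4* by 1.48 and *Etv4* by 1.10 on the log2 scale. By ratio of means *Spry4* was 37.2-fold, *Dusp6* 6.64-fold, *Spry2* 5.42-fold and *Etv4* 2.60-fold higher. *Etv5* went the other way and was 1.78-fold higher in the ESCs by ratio of means, which was not called at -0.78. *Fgf4* differed by -0.27 and *Fgfr1* by 0.50. For *Etv4* the difference was 0.95 without plate 4, within the limit. With the mean of log2(TP10k + 1) and a limit of 0.5, *Spry2* and *Dusp6* were higher, *Etv5* was lower at -0.61, and *Spry4* and *Etv4* were not called. Fewer cells with a transcript and less transcript per cell are both held in these means.

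More genes were found per cell in the ESCs, yet *Spry4* was above 0 in fewer of them. It was found in 50.6% of cells of the Epi-like wells (95% CI 45% to 56.3%), whereas the share among ESCs was 9.86% (95% CI 5.50% to 16%). At 5000 to 9000 genes above 0, which left 43.9% of cells of the Epi-like wells and 43.7% of ESCs, *Spry4* was found in 65.2% and 8.06%, and *Dusp6* in 82.6% and 41.9%. *Etv4* was found in 63% and 66.1%. The window narrowed the gap in depth without closing it, with medians of 5667.5 and 8664.5 genes, so that equal shares do not show an equal level. All 41 calls of the 9 comparisons were made again within this window.

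The other pairs of 3D and 2D differed in fewer of the genes. Between VE-like wells and iXEN cells *Spry2* was higher in 3D (1.75) and *Fgfr3* was lower (-1.06), where 2.38% of 12248 genes were called, 0.906% higher and 1.48% lower. For *Fgfr3* the difference was -0.99 without plate 4. Between ExE-like wells and iTSC *Spry2* was higher in 3D (2.27) and *Etv4* was lower (-1.39), where 6.32% of 13012 genes were called, 3.65% higher and 2.67% lower. *Fgfr1* differed by -0.11, *Fgfr2* by -0.40 and *Fgfr4* by 0.00 between ExE-like wells and iTSC, and none was called.

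**Figure D4:**
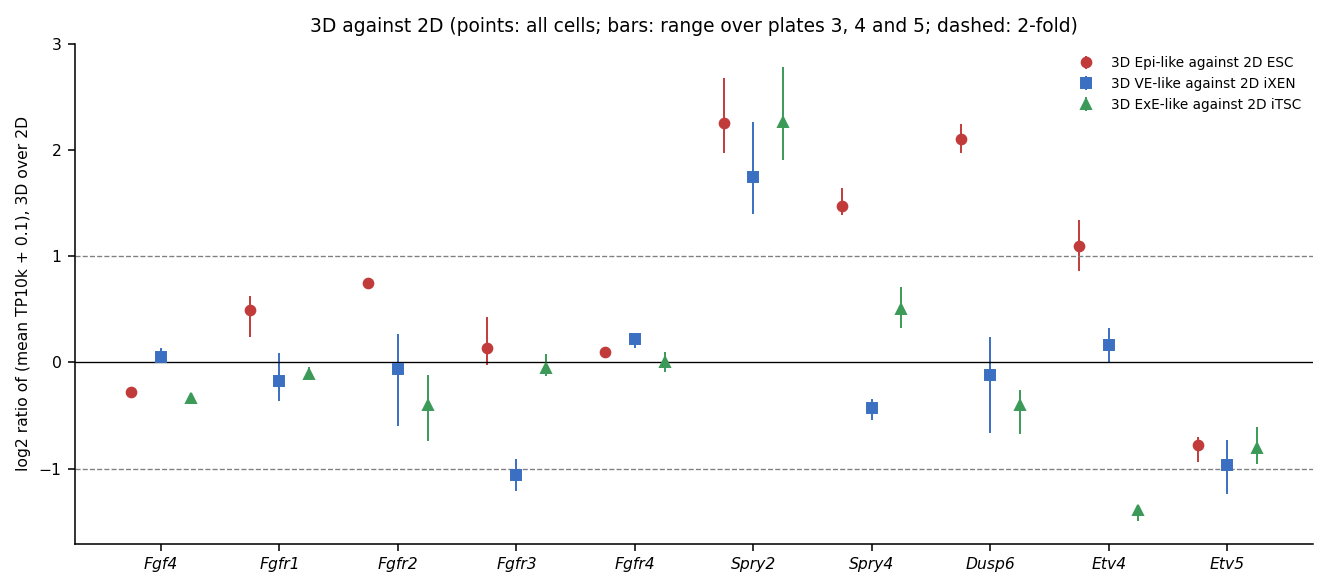
Log2 difference of mean TP10k + 0.1, 3D over 2D, for the 10 genes in the 3 pairs of lineages, with points for all cells, lines for the range over plates 3, 4 and 5 and dashes at 2-fold. *Spry2* lies above the 2-fold limit in every pair, and *Spry4* and *Dusp6* only in the pair of Epi-like wells and ESCs.

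*Spry2* stood apart from the other targets in being higher in 3D in each pair. Of 11455 genes tested in every pair, 12 (0.105%) were called higher in 3D in all 3, and *Spry2* was the only one of the 10 members among them. It also differed between plates. It averaged 2.71, 2.67 and 4.43 TP10k on plates 3, 4 and 5 in the Epi-like wells, 1.26, 1.33 and 2.38 in the VE-like wells, and 1.66, 1.59 and 3.02 in the ExE-like wells. Plate 5 was the highest in each block. Counted after these values were seen, 10 of 8838 genes (0.113%) were at least 1.5-fold higher on plate 5 in all 3 blocks. The lists of 12 and 10 genes shared *Spry2*, *Dock10* and *Lyrm4*, or 3 of 12 and 3 of 10. *Dock10*, which encodes an exchange factor for small GTPases, was also among the genes most like *Spry2* over all cells (r = 0.50), after *Cbx3* (r = 0.52) and *Wtap* (r = 0.50). It averaged 5.24 to 5.61 TP10k in the 3D blocks and 0.305 to 0.660 in 2D. The part of plate handling in the 3D level of *Spry2* was not tested, and *Spry2* was still called in each pair without plate 5.

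Among the 2D cultures, iTSC differed from ESCs in 8 of the 10 genes, where 8.99% of 13788 genes were called, 5.69% higher and 3.3% lower in iTSC. *Fgfr2* (3.38), *Dusp6* (2.34), *Etv4* (1.87), *Spry4* (1.41), *Fgfr1* (1.28) and *Fgfr4* (1.11) were higher in iTSC, and *Fgf4* (-3.55) and *Etv5* (-1.33) were lower. By ratio of means *Fgfr2* was 104.4-fold, *Spry4* 34.8-fold, *Dusp6* 7.97-fold and *Etv4* 4.72-fold higher. Of the ERK targets, 3 were thus higher where FGF4 was added than where MEK was inhibited, *Etv5* was lower and *Spry2* was not called. Cell type, cell line, DOX, medium and plate cannot be told apart in this pair.

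Between iXEN cells and ESCs 6 genes were called, where 14.2% of 13681 genes were, 8.21% higher and 5.96% lower in iXEN cells. *Fgfr3* (2.53), *Fgfr2* (2.33) and *Spry4* (1.23) were higher in iXEN cells, and *Fgf4* (-3.88), *Etv5* (-2.02) and *Fgfr1* (-1.57) were lower. *Dusp6* was low in both at 0.0856 and 0.141 TP10k, while *Spry4* was 28.4-fold higher in iXEN cells by ratio of means. Between iTSC and iXEN cells 5 genes were called, where 10.5% of 13450 genes were, 5.3% higher and 5.18% lower in iTSC. *Fgfr1* (2.85), *Dusp6* (2.72), *Etv4* (1.78) and *Fgfr2* (1.05) were higher in iTSC and *Fgfr3* (-2.39) was lower. These 3 comparisons share cultures and are not independent of each other.

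The ExE-like wells varied among themselves with the trophoblast stem genes *Elf5* and *Eomes*. Both transcripts were found in 94 cells (26.6%), 1 of them in 35.7% and neither in 37.7%, with median numbers of genes of 5809, 5723.5 and 4835. *Eomes* is also a transgene of the 5-Factor line, and its own and introduced transcripts were not told apart. *Fgfr2* averaged 1.52 TP10k with both, 0.616 with 1 and 0.387 with neither. The share of cells with *Fgfr2* was 77.7% with both (95% CI 67.9% to 85.6%), 47.6% with 1 and 26.3% with neither (95% CI 19.1% to 34.7%). *Etv4* averaged 0.728, 0.359 and 0.155 TP10k and was found in 71.3%, 46.8% and 19.5%. On single plates *Fgfr2* ran from 1.13 to 1.96 with both and from 0.286 to 0.459 with neither, without overlap.

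*Fgfr2* (log2 difference 1.73) and *Etv4* (1.70) were called higher in cells with both than in cells with neither, where 2.16% of 10772 genes were higher and 3.29% lower, and no member was called lower. Within 5000 to 9000 genes above 0, which left 72 and 59 cells, the differences were 1.28 for *Fgfr2* and 1.39 for *Etv4*, and both were called where 1.95% of 11354 genes were higher and 2.57% lower. *Fgfr2* ran from 0.355 to 1.46 TP10k between neither and both in the cells that led in ExE markers.

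No other member was called over this split. *Fgfr1* averaged 1.03 TP10k with both and 1.02 with neither. *Fgfr4* averaged 0.228 and 0.108, and 0.211 and 0.0466 within 5000 to 9000 genes, where its log2 difference was 1.08 but turned on plate 5. *Dusp6* averaged 1.03 and 0.687, and *Etv5* 0.447 and 0.331. The Sproutys ran the other way, with *Spry2* at 1.82 and 2.42 and *Spry4* at 0.219 and 0.30. *Fgf4* was found in neither set. When *Cdx2* and *Eomes* set the split instead, the ratio of cells with both to cells with neither fell from 3.93 to 2.15 for *Fgfr2* and from 4.68 to 2.58 for *Etv4*. That of *Fgfr4* went from 2.11 to 2.43, above *Fgfr2*, and the directions of *Spry4* and *Etv5* turned. *Cdx2* is a transgene as well.

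**Figure D5:**
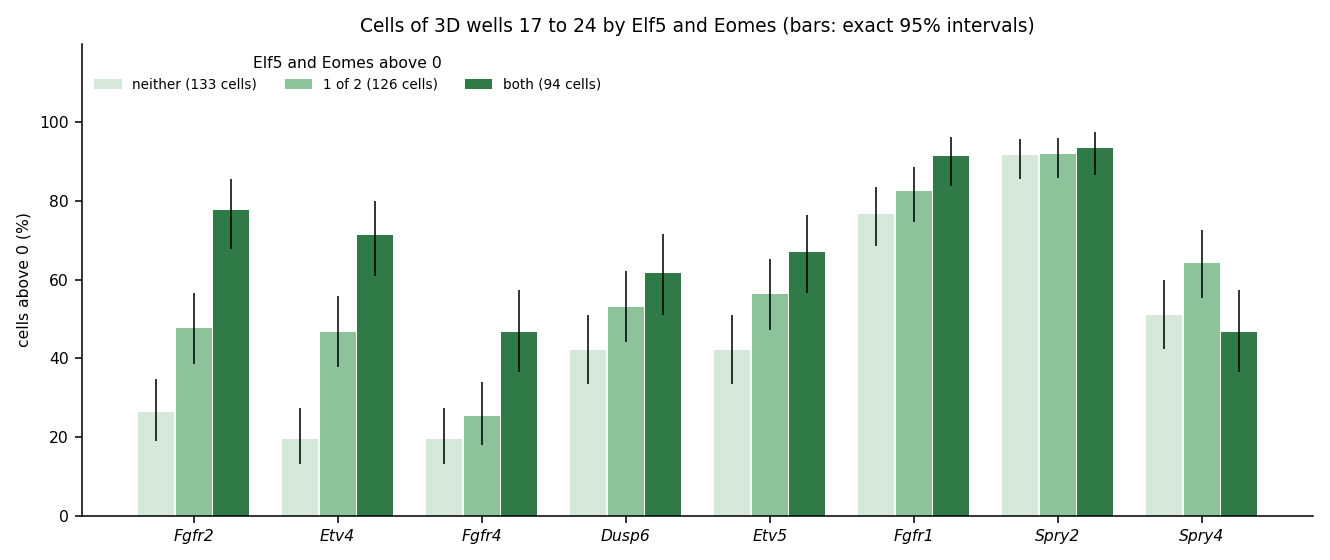
Share of cells (%) with 8 of the members among cells of the ExE-like wells with neither, 1 or both of *Elf5* and *Eomes*, with exact 95% intervals as lines. *Fgfr2* is found in 26.3%, 47.6% and 77.7% and *Etv4* in 19.5%, 46.8% and 71.3% of the 3 sets, while *Spry2* stays between 91.7% and 93.6%.

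The rest of the FGF pathway was followed through lists of its parts. Beside their counts stands the share of all genes called in the same comparison, and nothing particular to a list was read from them. Of 21 other FGF ligands, 5 reached the 10% minimum between Epi-like and VE-like wells and 4 of these were called (16% of all genes). *Fgf15* and *Fgf17* were higher in the Epi-like wells, at 0.608 and 0.143 TP10k, and *Fgf3* and *Fgf10* in the VE-like wells, at 0.625 and 0.525. *Fgf5*, a ligand of primed epiblast, averaged 0.172 in the Epi-like wells and 0.00654 in ESCs, and with *Fgf15* it was 1 of 2 of 8 ligands called between these (4.41% of all genes). Between VE-like wells and iXEN cells, *Fgf3* and *Fgf10* were 2 of 4 called (2.38% of all genes), and iXEN cells had 0.176 and 0.0645 TP10k. The ExE-like wells had no ligand called higher than in another 3D block.

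Of 19 coreceptors and heparan sulfate carriers, 5 of the 15 tested were called between Epi-like and VE-like wells (16% of all genes). *Klb*, the coreceptor for endocrine FGFs, averaged 0.611 TP10k in the VE-like wells and 0.495 in iXEN cells, against 0.000155 in the Epi-like wells. *Fgfbp1*, a secreted FGF-binding protein, was highest in the ExE-like wells at 1.19 TP10k, beside 0.418 in the Epi-like wells and 0.00391 in the VE-like wells. The glypican *Gpc4* averaged 0.549 in the ExE-like wells and 0.0273 in the VE-like wells. *Gpc3* averaged 3.29 and 1.21 there. Between ExE-like and VE-like wells 5 of 16 of this list were higher and 1 was lower (5.97% and 4.13% of all genes).

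The steps between receptor and ERK are shared by many receptors. Between Epi-like and VE-like wells, where 16% of all genes were called, 0 of 12 adaptors were, and of 10 kinases of the RAS-RAF-MEK-ERK chain only *Mapk3*, which encodes ERK1, was called. *Mapk3* averaged 1.90 TP10k in the VE-like wells, 0.883 in the Epi-like wells, 0.586 in the ExE-like wells and 0.283 in ESCs. Between Epi-like wells and ESCs 0 of 12 adaptors and 1 of 11 kinases, again *Mapk3*, were called, a share near the 4.41% of all genes. The ExE-like wells were higher than the VE-like wells in 2 of 13 adaptors, beside 5.97% of all genes. These were *Grb2* (0.769 against 0.327 TP10k), which links receptors to RAS activation, and the RAS exchange factor *Sos2* (0.361 against 0.108). *Sos2* was also the 1 of 13 called between Epi-like and ExE-like wells (10.3% of all genes), at 0.0824 in the former. The median log2 difference there was -0.50 over the list and -0.07 over all genes. In 2D, *Frs2* and *Shc1* were the 2 of 13 adaptors called higher in iTSC than in ESCs (5.69% of all genes). *Frs2* was the 1 of 13 called higher in iXEN cells than in ESCs (8.21% of all genes). *Plcg1* was the 1 of 13 called higher in iTSC than in iXEN cells (5.3% of all genes).

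Among 17 other feedback regulators, *Spred1* and *Dusp4* were the 2 of 15 called between Epi-like wells and ESCs, both higher in 3D (2.49% of all genes). *Dusp4* averaged 0.179 TP10k against 0.0114, and *Spred1* 0.183 against 0.0357. *Flrt3*, a membrane protein that binds FGF receptors, averaged 1.72 in the VE-like wells and 1.86 in iXEN cells, and at most 0.0837 elsewhere. Of 20 other ERK-responsive genes, 14 were tested between Epi-like and VE-like wells. Of these, 4 were higher in the Epi-like wells (7.54% of all genes). Another 3, *Plaur*, *Junb* and *Phlda1*, were higher in the VE-like wells (8.48% of all genes). Of 14 tested between Epi-like and ExE-like wells, 3 were higher and 5 lower in the Epi-like wells (3.78% and 6.53% of all genes). Between Epi-like wells and ESCs 17 were tested, with *Etv1* higher (0.304 against 0.0815) and *Junb* lower (0.0582 against 0.245). These were 2 of 17 beside 4.41% of all genes. *Fos* averaged 0.966 in iTSC and 0.145 in the ExE-like wells, and 3 of 19 genes of this list were lower in the ExE-like wells than in iTSC (2.67% of all genes). *Myc* averaged 0.806 in the ExE-like wells and 0.868 in iTSC, and *Plaur* 3.43 in the VE-like wells and 4.14 in iXEN cells.

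Of 16 other receptor tyrosine kinases, *Pdgfra* was the 1 of 10 called between Epi-like and VE-like wells, at 0.00381 and 0.806 TP10k (16% of all genes). *Kit*, the receptor for stem cell factor, was the 1 of 12 called between Epi-like wells and ESCs, at 0.211 and 0.795 (4.41% of all genes). Of 7 trophoblast stem genes, 3 of them transgenes of the 5-Factor line, all 7 were called higher in the ExE-like than in the VE-like wells (5.97% of all genes). Of these, 4 are ExE markers that named the wells. Between ExE-like wells and iTSC 1 of 7, *Sox2*, was called, at 0.312 and 0.812 (6.32% of all genes). *Bmp4* of this list averaged 0.943 in the ExE-like wells and 1.98 in iTSC.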

How the data were processed

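Mouse single cells were measured by SMART-seq2. The authors pseudoaligned reads with kallisto to GRCm38 transcripts, summed them per gene, filtered mitochondrial, ribosomal and pseudogenes, and deposited TPM. TPM keep no read number, so depth is unknown and genes above 0 took its place, and the sum over the deposited genes, 564024 to 660983 in the median per group, was rescaled to 10000 per cell. All columns were matched to their samples by name.

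Groups were plates and well columns. With 1 sample per condition there was no test, SE or p-value, and shares have exact Clopper-Pearson 95% intervals. Calls were made over the whole table. The members, gene lists and splits were chosen with earlier results of these data known. Named beside the members and markers were genes called in a comparison and up to 3 most alike genes per member. Not every called gene was named, and no fixed number per list was kept. *Otx2* and the plate 5 count were chosen after values were seen. Alternatives were another minimum of genes, pseudocounts, scalings, a log mean, a depth window, own-marker cells, and each plate left out. The calling was checked on cells of the ExE-like wells split at random, with chosen genes raised or lowered in a part of them. Only well-expressed genes were changed, and well beyond 2-fold. The check therefore does not cover weakly expressed genes or differences near the limit. Python 3.11.15, numpy 2.4.6, pandas 2.3.3 and scipy 1.17.1 were used.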

Additional observations from a re-analysis of the deposited data

Results flagged for a closer look

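*Etv4* changed in opposite directions between 3D and 2D in a pair of lineages. In the Epi-like wells it was higher than in ESCs by 1.10 on the log2 scale, on each of plates 3, 4 and 5 (0.86 to 1.35). In the ExE-like wells it was lower than in iTSC, with -1.39 and a range of -1.49 to -1.35 on single plates. The means were 0.640 and 0.246 TP10k in the first pair and 0.380 and 1.161 in the second. The difference between the pairs was not tested, since each condition is 1 sample, and without plate 4 the first value was 0.95.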

How the results depend on the processing

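Each of the 41 calls over the 9 comparisons was repeated under up to 13 alternatives. Of 457 repeats, 403 kept their call, 54 fell within the limit and 0 turned their direction, and 24 calls were gained. With a pseudocount of 1 in place of 0.1, which alone can lower any log2 difference, the counts of called members were 1 in place of 6 for Epi-like against VE-like wells, 1 in place of 4 for Epi-like against ExE-like wells, 0 in place of 4 for ExE-like against VE-like wells, 1 in place of 4 for Epi-like wells against ESCs, 0 in place of 2 for VE-like wells against iXEN cells, 1 in place of 2 for ExE-like wells against iTSC, 2 in place of 8 for iTSC against ESCs, 2 in place of 6 for iXEN cells against ESCs and 0 in place of 5 for iTSC against iXEN cells. With a pseudocount of 0.01 all 10 were called between Epi-like and VE-like wells. With the mean of log2(TP10k + 1) and a limit of 0.5 the counts were 2 for Epi-like against ExE-like wells, 2 for ExE-like against VE-like wells, 1 for VE-like wells against iXEN cells, 3 for iTSC against iXEN cells and 3 for iXEN cells against ESCs. For Epi-like wells against ESCs it was 3, with 2 higher and 1 lower, *Etv5*. Leaving out single plates gave 1 to 2 for VE-like wells against iXEN cells, and the call lost without plate 4 was *Fgfr3* at -0.99. Without plate 4, *Etv4* at 0.95 and *Fgfr4* at -0.98 were also lost. The group of highest mean was another for *Fgfr4* under 4 alternatives, for *Fgfr1* with mean TPM and for *Fgf4* in the depth window, where the Epi-like wells and ESCs differed by 0.00. No paired analysis was possible because no test was made. Differences within plates 3, 4 and 5, which each hold the 3 blocks, entered the calls as directions. Without counts, a transcript not found is not shown to be absent.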

Other observations

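Within the Epi-like wells, cells were also split by *Otx2*, a transcription factor of primed epiblast, a split looked at after other values had been seen. *Fgfr2* was found in 2.98% of the cells with *Otx2*, which were 53.5% of these wells, at a mean of 0.0142 TP10k, and in 13.7% of the cells without, at 0.167. The median numbers of genes were 4970.5 and 4633. *Fgf4* averaged 1.26 and 0.947 TP10k in these sets and *Fgfr1* 0.584 and 0.526. In the VE-like wells, 79 cells had *Nodal* or *Lefty1*, which encodes a NODAL inhibitor. *Spry4* was found in 45.6% of these and in 27.1% of the others, and *Etv5* in 55.7% and 33.5%, at median numbers of genes of 5524 and 5252.5. *Etv4* was found in 54.4% and 40.7%, *Dusp6* in 11.4% and 5.93% and *Spry2* in 92.4% and 90.3%. The mean of *Spry2* went the other way, at 1.34 and 1.72 TP10k. *Fgfr2* was found in 35.4% and 41.9%. The splits by *Otx2* and by *Nodal* or *Lefty1* were not set against all genes, and depth was not matched.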
